A study of Mus musculus with 6 samples.

Results

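The 10 genes studied here mark the ventral telencephalon and the GABAergic interneurons born there, and were followed in cultured neural stem cells (NSCs) with and without miR-151. They are Dlx1, Dlx2, Dlx5, Dlx6, Gsx1, Gsx2, Nkx2-1, Lhx6, Gad1 and Gad2, given by name and all found among the 32493 genes of the count table. The NSCs came from mouse embryos at E14.5. The culture methods of the study name the lateral ventricles as their source, and its list of resources the cortex. They were grown to the third generation in medium with B27, EGF and bFGF before RNA was sequenced in bulk. Both genotypes carried floxed miR-151 alleles. The cko embryos also carried Emx1-IRES-Cre, which drives Cre in the dorsal telencephalon, so that cells from outside this domain keep miR-151. The ctrl embryos were Cre-negative littermates, which the sample labels call wild type. The data hold 2 ctrl libraries (numbers 1 and 3) and 3 cko libraries, and it was not stated which of them share a litter, so p-values measure the spread between these libraries only.

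The ventral part of the embryonic telencephalon holds the ganglionic eminences, whose progenitors give rise to striatal neurons and to the interneurons that migrate into the cortex. Gsx1 and Gsx2 encode homeodomain proteins that pattern the progenitors of the lateral eminence, and the Dlx genes, arranged in pairs on the chromosome, act after them in ventral progenitors and their GABAergic progeny. Nkx2-1 specifies the medial eminence and switches on Lhx6, which guides its interneurons, while Gad1 and Gad2 encode the enzymes that make GABA.

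The depth was 17883796 to 23335736 counts per library, and 3 counts, taken as the smallest level that can be shown, correspond to 0.129 to 0.168 CPM, that is, counts divided by the TMM-normalized depth of a library. This floor covers counting error only. NSC markers were abundant, with a summed level of 7458 and 8485 CPM in ctrl and 8835 to 9520 CPM in cko libraries, and all 8 microglial markers were near 0. Over all 16710 genes tested by edgeR, an adjusted p under 0.05 was reached by 7.86% upwards and by 8.57% downwards in cko relative to ctrl NSCs. The deleted miRNA is not among the genes counted, so the labels could not be checked with it. In bulk RNA, fewer cells of a type and less RNA per cell cannot be told apart.

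The members fell into a measurable and a near-absent group, as the plot of levels by library shows. Gad1, Gsx1, Gsx2, Dlx2, Dlx1 and Gad2 passed the filter on low counts, and Dlx5, Dlx6, Nkx2-1 and Lhx6, with at most 7 counts in any library, did not. Of the 6 tested members, edgeR called 1 higher in cko NSCs (Gad1, adjusted p under 0.05) and 0 lower. By unadjusted p under 0.05, 1 was higher and 1 lower (Dlx2). Over all 16710 tested genes, 2662 were higher and 2783 lower at this threshold. DESeq2 called the same numbers of members after adjustment as edgeR. The median log2 fold change was 0.23 over the 6 tested members and -0.0026 over all tested genes. In these 5 libraries no member passed the threshold of the study, a log2 fold change beyond 0.9 with an unadjusted p under 0.01, which 2.39% of tested genes passed upwards and 4.17% downwards. Dlx2 passed it downwards with no filter (log2 fold change -1.18) and without ctrl library 1 (-1.53). Dlx2 also passed it when all 6 columns were entered in edgeR without (-1.16) or with the replicate number as a block (-1.17). DESeq2, the tool of the study, gave -1.17 with all 6 columns, which passed as well. Gad1 passed it upwards without ctrl library 3 (0.99), a fit that leaves 1 ctrl library.

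**Figure D1:**
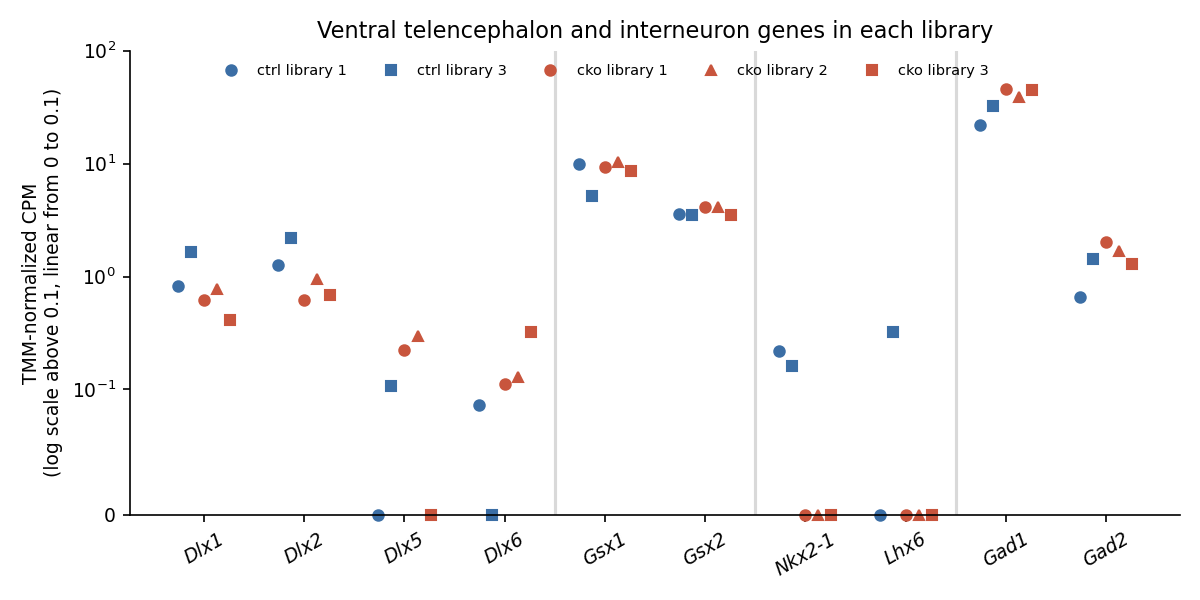
The level of each of the 10 members in each of the 5 libraries, in TMM-normalized CPM on an axis that is logarithmic above 0.1 and linear below, with ctrl libraries in blue and cko libraries in red. Gad1 lies between 21.8 and 46.0 CPM with its 3 cko points on top, while Nkx2-1 and Lhx6 have no count in the cko libraries.

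Per kilobase of annotated exon, the order of mean levels was Gsx1 (4.89 CPM per kb), Gad1 (4.83), Gsx2 (2.28), Dlx2 (0.400), Gad2 (0.241) and Dlx1 (0.159). Gsx1 ranged from 2.89 to 5.78 CPM per kb and Gad1 from 2.86 to 6.03, so that these neighbours did not differ beyond their spread. Gsx2, at 2.12 to 2.50 CPM per kb, lay below both in every library. Dlx2 (0.216 to 0.766), Gad2 (0.112 to 0.343) and Dlx1 (0.0767 to 0.307) overlapped in range, although within each library Dlx2 exceeded Dlx1, by 1.89 to 3.15 times. Gsx1 and Gad1 thus sat near the middle of the tested genes, with 49.1% and 48.9% of them at a lower level, whereas only 3.58% were below Dlx1.

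**Figure D2:**
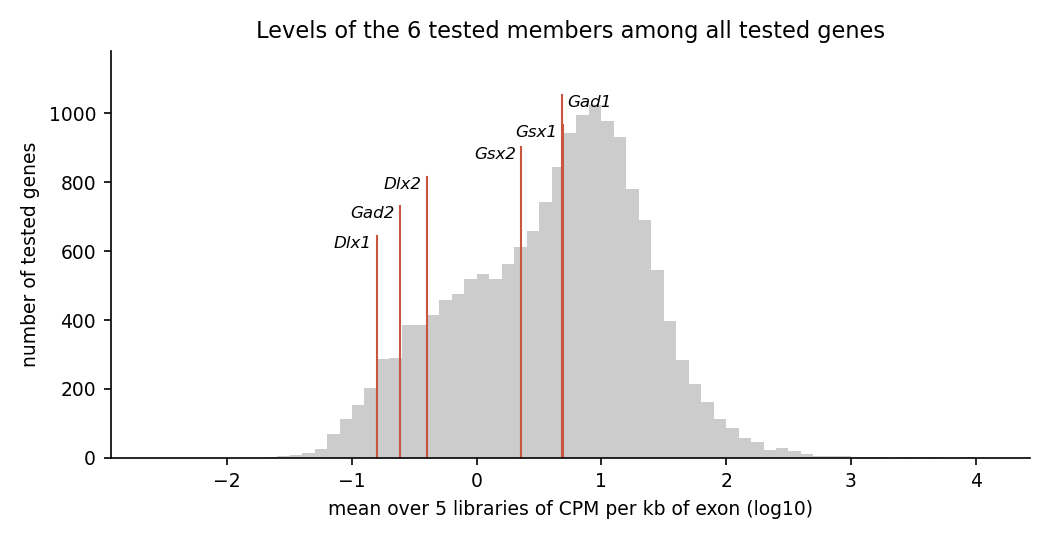
Histogram of the mean CPM per kb of exon (log10, over the 5 libraries) of the tested genes, in grey, with red lines at the 6 tested members. Gsx1 and Gad1 fall near the middle of the distribution, and Dlx1, Gad2 and Dlx2 in its lower tail.

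The Gsx genes, at the top of the ventral hierarchy, were the most abundant ventral regulators among the members, and their upstream sequences are shown for that reason. RefSeq (GRCm38.p6) gives windows of 250 bases before the transcription start at chr5:147188446-147188695 for Gsx1 and at chr5:75075351-75075600 for Gsx2, both on the plus strand and free of annotated exons. Capitals mark TAAT, the core that homeodomain proteins recognise, on either strand.
Gsx1: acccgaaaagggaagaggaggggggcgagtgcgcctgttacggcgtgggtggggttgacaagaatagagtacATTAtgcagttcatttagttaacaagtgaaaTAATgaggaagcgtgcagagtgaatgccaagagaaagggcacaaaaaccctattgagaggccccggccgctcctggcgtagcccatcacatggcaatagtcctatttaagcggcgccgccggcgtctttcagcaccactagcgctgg
Gsx2: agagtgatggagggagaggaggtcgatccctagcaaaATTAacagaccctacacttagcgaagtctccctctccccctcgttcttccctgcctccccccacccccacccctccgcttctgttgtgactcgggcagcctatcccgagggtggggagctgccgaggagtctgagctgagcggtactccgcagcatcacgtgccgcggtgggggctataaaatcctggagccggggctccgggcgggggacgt
The Gsx1 window holds the core at 178 and 147 bases before the start, and the Gsx2 window at 213 bases, where 1 is the last base before the start. TAAT is a short motif, found in 54.9% of the 32851 RefSeq windows of this length, and a match describes the sequence only. Its longer palindrome TAATTA, present in 4.84% of all windows, was in none of the 10 windows listed for 8 members (Dlx5 and Dlx6 had no window).

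Gsx1 (ENSMUSG00000053129, chromosome 5 from 147188696 to 147190947 in GRCm38) had 229 and 96 counts in ctrl libraries 1 and 3, and 167, 239 and 187 counts in cko libraries 1, 2 and 3. In CPM these are 10.003 and 5.12 against 9.34, 10.2 and 8.59, so that ctrl library 3 alone was low and the other 4 libraries overlapped. The means were 7.56 ± 3.45 CPM in ctrl (SD, n = 2) and 9.39 ± 0.827 CPM in cko NSCs (SD, n = 3), a log2 fold change of 0.31 (SE 0.27, 95% interval -0.34 to 0.95, adjusted p = 0.482 by edgeR). The result rests on which ctrl library is used: without ctrl library 1 the log2 fold change was 0.87 (adjusted p = 0.0179 by edgeR) and without ctrl library 3 it was -0.085 (adjusted p = 0.774).

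Gsx2 (chromosome 5 from 75075601 to 75077893) was the steadiest of the members, with 82 and 66 counts in the ctrl and 74, 97 and 77 counts in the cko libraries. The levels were 3.58 and 3.52 CPM in ctrl and 4.14, 4.16 and 3.54 CPM in cko NSCs, and the genotypes overlapped. Its log2 fold change was 0.15 (SE 0.21, adjusted p = 0.660 by edgeR), and the 95% interval of -0.34 to 0.64 bounds the difference without showing equality. The ratio of Gsx1 to Gsx2 per kb was 2.62 in ctrl library 1 and 2.12 to 2.31 in the cko libraries, against 1.37 in ctrl library 3.

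The Dlx genes were scarce. Dlx2 (chromosome 2 from 71543408 to 71546754, minus strand), a homeobox factor that ventral neurons need to differentiate and migrate, had 29 and 41 counts in the ctrl libraries and 11, 22 and 15 in the cko libraries. Each cko library, at 0.615, 0.943 and 0.689 CPM, was below both ctrl libraries, at 1.27 and 2.19 CPM, a pattern that 24.3% of all tested genes also showed. The means were 1.73 ± 0.651 CPM (SD, n = 2) and 0.749 ± 0.172 CPM (SD, n = 3). The log2 fold change of -1.18 (SE 0.39, 95% interval -2.09 to -0.26) had an unadjusted p of 0.0187 and an adjusted p of 0.0826 by edgeR, so Dlx2 did not pass the test. This side of the threshold depends on the processing: the adjusted p was 0.0380 with no filter on low counts, 0.0379 without ctrl library 1 and 0.327 without ctrl library 3. It was 0.0208 by edgeR when the ctrl 2 column, an average of the other ctrl columns, was entered as a library.

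Dlx1, the partner of Dlx2 in the cluster (chromosome 2 from 71528113 to 71533981, plus strand), had 19 and 31 counts in ctrl and 11, 18 and 9 counts in cko libraries. The levels were 0.830 and 1.65 CPM against 0.615, 0.772 and 0.414 CPM, again with no overlap, and ctrl library 3 was the highest for both genes. The log2 fold change was -1.02 (SE 0.47, 95% interval -2.11 to 0.07) with an adjusted p of 0.176 by edgeR. Dlx1as, a transcript antisense to Dlx1, spans all of it (chromosome 2 from 71516454 to 71537891, minus strand) and was the more abundant, with 90 and 89 counts in ctrl and 56, 61 and 81 counts in cko libraries. Its log2 fold change was -0.46 (SE 0.24, adjusted p = 0.233 by edgeR). Dlx1as also overlaps the protein-coding gene Metap1d, on the other strand, over 8741 bases. Metap1d had 1120 and 890 counts in ctrl and 715, 829 and 913 counts in cko libraries. Strand use in counting was not stated, so reads of Dlx1as cannot be told apart from those of Dlx1 or Metap1d where they share sequence.

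The upstream window of Dlx2 is shown because Dlx2 was the member nearest to a call in the lower direction. It lies at chr2:71546755-71547004 on the minus strand (RefSeq, GRCm38.p6), overlaps no annotated exon and, unlike the Gsx windows, has no TAAT, so it is printed without capitals.
Dlx2: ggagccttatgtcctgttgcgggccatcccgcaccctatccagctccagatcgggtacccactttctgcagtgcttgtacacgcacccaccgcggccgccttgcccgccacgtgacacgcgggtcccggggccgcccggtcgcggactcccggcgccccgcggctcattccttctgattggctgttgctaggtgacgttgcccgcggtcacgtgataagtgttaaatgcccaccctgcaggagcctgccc
With 66.4% G and C it is richer in these bases than the windows of Gsx1 (54.0%) and Gsx2 (63.6%), and it holds 2 matches of CANNTG, the E-box of basic helix-loop-helix proteins, which 66.2% of all windows contain. The missing core says only that these letters are not in this window.

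Dlx5 and Dlx6, the pair on chromosome 6, stayed at the edge of detection. Dlx5 had 0 and 2 counts in the ctrl libraries and 4, 7 and 0 in the cko libraries, and Dlx6 had 2 and 0 against 2, 3 and 7. The genotypes overlapped for Dlx5, while the CPM of Dlx6 was higher in each cko library than in both ctrl libraries, with at most 7 counts. Since cko library 1 and ctrl library 1 both had 2 counts of Dlx6, their CPM (0.112 and 0.0874) differed by depth only. Both lay under the floor of 3 counts, so the order of the Dlx6 levels shows no difference between the genotypes. In a fit with no filter the adjusted p was 0.609 for Dlx5 and 0.546 for Dlx6 by edgeR. Dlx6os1, antisense to Dlx6, had at most 4 counts, while Dlx3 had 3 and 6 counts in ctrl and 3, 0 and 0 in cko libraries, and Dlx4 had 1 count in all. Summed over Dlx1, Dlx2, Dlx5 and Dlx6, the ctrl libraries held 50 and 74 counts and the cko libraries 28, 50 and 31.

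The genes of the medial eminence had at most 6 counts in any ctrl library and none in the cko libraries. Nkx2-1 (chromosome 12 from 56531958 to 56536908) had 5 and 3 counts in the ctrl libraries and 0 in each of the 3 cko libraries. It had too few counts to pass the filter, and in a fit with no filter its adjusted p was 0.111 by edgeR. The ctrl levels of Nkx2-1, 0.218 and 0.160 CPM, were near the floor of the cko libraries (0.129 to 0.168 CPM), and no difference was shown. Lhx6 (chromosome 2 from 36081953 to 36105408) had 0 counts in ctrl library 1, 6 in ctrl library 3 and 0 in every cko library, so that its signal came from 1 library (adjusted p = 0.186 by edgeR with no filter). A difference in Lhx6 was not detectable at this depth.

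Gad1 (ENSMUSG00000070880, chromosome 2 from 70553072 to 70602014), which encodes the larger of the glutamate decarboxylases, was higher in cko NSCs. It had 500 and 604 counts in the ctrl libraries and 823, 907 and 986 in the cko libraries. The levels were 21.8 and 32.2 CPM against 46.0, 38.9 and 45.3 CPM, and every cko library was above both ctrl libraries, as in 25.4% of all tested genes. The means were 27.0 ± 7.34 CPM (SD, n = 2) and 43.4 ± 3.94 CPM (SD, n = 3), a log2 fold change of 0.69 or 1.61-fold (SE 0.17, 95% interval 0.29 to 1.08, adjusted p = 0.0342 by edgeR). Gad1 made up 56.8% and 68.9% of the summed counts of the 10 members in ctrl and 68.1% to 75.3% in cko libraries. The call was lost without any 1 cko library, with adjusted p of 0.11, 0.0855 and 0.134 by edgeR without libraries 1, 2 and 3, while the log2 fold change stayed between 0.63 and 0.75. Gad1os, antisense to Gad1, had at most 9 counts in any library.

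Gad2, which encodes the other decarboxylase, was much rarer, with 15 and 27 counts in the ctrl and 36, 39 and 28 counts in the cko libraries. At 0.655 and 1.44 CPM against 2.01, 1.67 and 1.29 CPM the genotypes overlapped, since ctrl library 3 was above cko library 3. The log2 fold change of 0.67 (SE 0.42, 95% interval -0.32 to 1.66) had an adjusted p of 0.312 by edgeR. It was 0.18 without ctrl library 1 and 1.33 without ctrl library 3, and was called in neither case. Per kb, Gad1 exceeded Gad2 by 25.6 and 17.2 times in ctrl and by 17.6, 17.9 and 27.1 times in cko libraries.

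**Figure D3:**
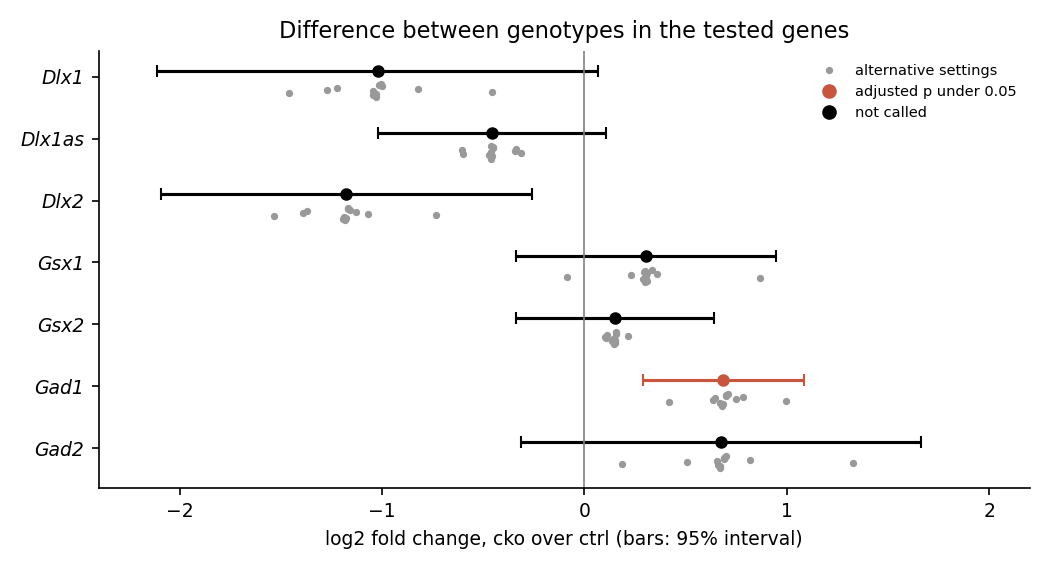
Log2 fold change (cko over ctrl) of the 6 tested members and Dlx1as, with 95% intervals, and grey dots for the alternative settings. Gad1, in red, is the only called gene, and the dots of Gsx1 run from -0.085 to 0.87, on both sides of 0.

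For the 2 members with the highest mean CPM, the genes whose levels followed them most closely over the 5 libraries were sought by the root mean square distance of centred log2 CPM. Nearest to Gad1 were AW551984 (distance 0.0721), Tspo (0.0734), which encodes a protein of the outer mitochondrial membrane, and Chl1 (0.0775), which encodes a neural cell adhesion molecule. Chl1 had 1372 and 1593 counts in ctrl and 2233, 2605 and 2406 in cko libraries. The other two had at most 76 counts in a library, and with a smaller prior count (0.5 in place of 2) none of these 3 genes was among the nearest. Nearest to Gsx1 were Hgfac (0.0431), Kcnu1 (0.0435) and C130030K03Rik (0.0450), each with 16 counts in ctrl library 3 and 27 to 42 in the others.

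Among 30 other transcription factors of ventral progenitors and interneurons, 26 were tested. In cko NSCs 4 (15.4%) were higher and 3 (11.5%) lower, with a median log2 fold change of 0.13. Over all tested genes, 7.86% were higher and 8.57% lower, with a median of -0.0026. The higher genes included Meis2, a factor of the lateral eminence and striatum (139 and 103 CPM in ctrl, 195, 200 and 202 CPM in cko), and the oligodendrocyte-lineage factors Olig1 and Olig2. Their log2 fold changes were 0.72 for Meis2 (adjusted p = 0.0110), 0.63 for Olig1 (0.0108) and 0.38 for Olig2 (0.0444), all by edgeR. The calls of Meis2 and Olig1 were lost without cko library 2 or 3, and that of Olig2 without any 1 library but ctrl library 3. Olig2 was also not called with median-of-ratios size factors (adjusted p = 0.0503 by edgeR), with at least 10 counts in every library (0.0519) and with a replicate block (0.126). The lower genes were Six3, a factor of the lateral eminence and forebrain, Nr2f2, a factor of the caudal eminence, and Nkx6-2, a Hedgehog-responsive homeobox gene.

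Six3 had the largest change of this list, from 30.1 and 24.2 CPM in ctrl to 2.29, 1.84 and 1.42 CPM in cko libraries, a log2 fold change of -3.88 (SE 0.21, adjusted p = 0.000367 by edgeR). It overlaps Six3os1 on the other strand, which had 2031 and 1531 counts in ctrl and 93 to 96 in cko libraries, and without strand the reads they share cannot be told apart. Nr2f2 fell from 3.01 and 5.28 to 1.29 to 1.93 CPM (log2 fold change -1.40, adjusted p = 0.0290 by edgeR). Nkx6-2 fell from 3.23 and 5.44 to 1.12 to 2.02 CPM (-1.38, adjusted p = 0.0345), and both calls were lost without ctrl library 3 and without any 1 cko library. Markers of the oligodendrocyte lineage, a list that also holds Olig1 and Olig2, moved in both directions, with 2 of 10 higher and 5 lower and summed levels of 3459 and 4121 CPM in ctrl and 3512 to 3682 CPM in cko libraries. Their part in these results was not tested.

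Of 22 genes of interneuron identity and GABA handling, 11 were tested, 1 was higher and 1 lower (9.09% each). The shares over all tested genes were 7.86% and 8.57%. The median log2 fold change was -0.40, against -0.0026 over all tested genes. Ackr3, a receptor for the chemokine that guides migrating interneurons, rose from 14.7 and 12.4 to 26.6, 28.2 and 27.2 CPM (log2 fold change 1.01, SE 0.12, adjusted p = 0.00294 by edgeR). Slc6a11, a GABA transporter found mostly in astrocytes, fell from 831 and 1222 to 401, 251 and 241 CPM (-1.79, SE 0.25, adjusted p = 0.00493 by edgeR). Beside it, 5 of 10 astrocyte markers were lower and 0 higher, with summed levels of 3694 and 2626 CPM in ctrl and 1511 to 2225 CPM in cko libraries, and their part in this result was not tested. With DESeq2, 4 genes of this list were called lower.

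Several genes of the interneuron list were close to absent, while others, such as Erbb4 (172 to 208 CPM) and Reln (up to 23.3 CPM), passed the filter and were not called. Reln was lower in every cko library than in both ctrl libraries (log2 fold change -0.80, adjusted p = 0.0725 by edgeR), as were 24.3% of all tested genes. At an unadjusted p under 0.05 by edgeR, 4 of the 11 tested genes of this list were lower and 1 was higher. Over all 16710 tested genes, 2783 were lower and 2662 higher at this threshold. Vip and Crhbp had 0 counts in every library, which allows a level of up to 0.168 CPM, and Slc32a1, the vesicular GABA transporter, had 4 counts, all in ctrl library 3. After their values were seen, Sst (0 and 7 counts in ctrl, 1, 0 and 1 in cko), Nos1 (1 and 12 against 0, 0 and 0) and Calb1 (1 and 8 against 0, 0 and 1) were singled out as further genes with most of their reads in ctrl library 3. Of the 17 members, ventral factors, interneuron and GABA genes that were below the filter and had a count, 9 (52.9%) had their highest CPM in ctrl library 3, against 22.9% of all 13814 such genes. Their summed counts were 28 and 71 in ctrl and 23, 38 and 32 in cko libraries. These 17 genes include Sst, Nos1 and Calb1, singled out above, and others with at most 3 counts in every library. The tally was outside the planned comparisons, and describes ctrl library 3 without testing anything. The neuronal marker Stmn2, also singled out after its values were seen, had 4 and 48 counts in ctrl and 1, 4 and 2 in cko libraries, and was removed by the filter. Of the 9 neuron markers tested, 2 were higher in cko NSCs (Elavl4 and Syt1, log2 fold changes 1.30 and 1.57) and 1 was lower (Dcx, -1.51), and their part in these counts was not tested. The summed level of the 10 neuron markers, most of it Map2, was 1364 and 1237 CPM in ctrl and 1361 to 1392 CPM in cko libraries.

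**Figure D4:**
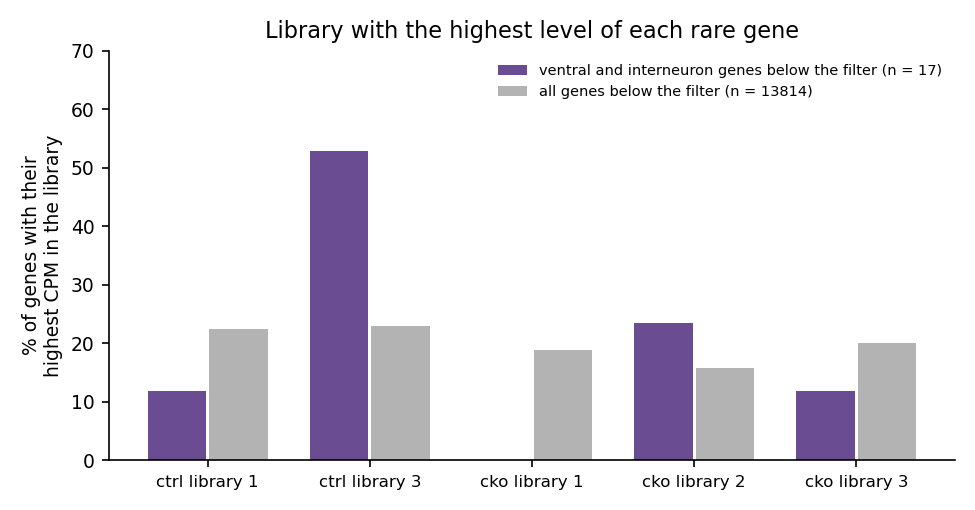
Share of the genes below the filter on low counts that had their highest CPM in each library, for 17 ventral and interneuron genes (purple) and for all 13814 such genes with a count (grey). The purple bar of ctrl library 3 stands at 52.9%, against 22.9% for the grey bar. The purple set includes genes singled out after their values were seen, so the bars are descriptive only.

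Ventral identity is set against dorsal factors and by Hedgehog signalling, so both were read beside the members. Of 15 dorsal telencephalon factors, 9 were tested, 1 was higher and 1 lower (11.1% each, beside 7.86% and 8.57% of all tested genes). Their median log2 fold change was 0.39, beside -0.0026 over all tested genes. Lhx2, a selector gene of the cortex, rose from 57.0 and 51.5 to 89.7, 79.1 and 86.7 CPM (log2 fold change 0.65, SE 0.09, adjusted p = 0.00524 by edgeR). Gli3, which represses Hedgehog targets in the dorsal telencephalon, fell from 18.6 and 13.2 to 10.1, 6.39 and 6.89 CPM (-1.04, SE 0.24, adjusted p = 0.0269 by edgeR). Emx1, whose locus carries the Cre and which was named after its values were seen, had 10 and 9 counts in ctrl and 1, 4 and 6 in cko libraries and was removed by the filter.

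Of 14 Hedgehog pathway genes, 12 were tested. At an adjusted p under 0.05, 0 were higher and 3 (25.0%) lower, against 7.86% and 8.57% of all tested genes. At an unadjusted p under 0.05 by edgeR, 3 were higher (Ptch1, Hhip and Cdon, log2 fold changes 0.36, 0.66 and 0.61) and 4 lower. Over all 16710 tested genes, 2662 were higher and 2783 lower at that threshold. DESeq2 called 3 higher after adjustment. The median log2 fold change was -0.049, against -0.0026 over all tested genes. Gli2, the main activator of the pathway, fell from 21.8 and 19.3 to 12.4, 8.49 and 8.36 CPM (-1.08, SE 0.19, adjusted p = 0.0120 by edgeR). Gli3, listed here as well, was the second of the lower genes. Dhh, a Hedgehog ligand, had 28 and 86 counts in ctrl and 4, 10 and 8 counts in cko libraries (-3.03, SE 0.62, adjusted p = 0.0187 by edgeR), and it shares annotated sequence with Rhebl1 on the same strand. The call of Dhh was lost without ctrl library 3 (log2 fold change -1.80) and without any 1 cko library (adjusted p of 0.0693 to 0.0835 by edgeR). Those of Gli2 and Gli3 were lost without cko library 2 or 3, and that of Gli3 also without ctrl library 1 (log2 fold change -0.79). The plot of the lists shows these genes against their medians.

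**Figure D5:**
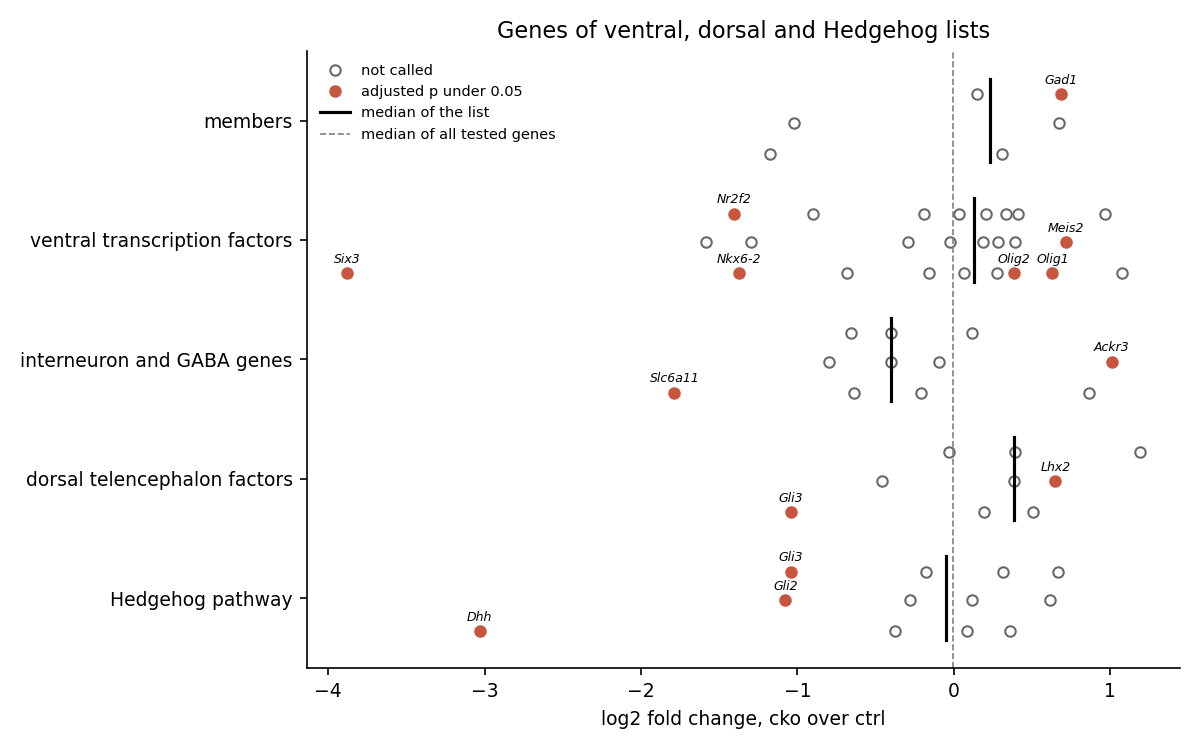
Log2 fold change (cko over ctrl) of the tested genes of the members and of the ventral (1 gene not shown), interneuron, dorsal and Hedgehog lists, in a row per list, with called genes filled in red, a black bar at the median of each list and a dashed line at the median of all tested genes. Six3 at -3.88 and Dhh at -3.03 lie far from the rest, and Gad1 is the only called member.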

How the data were processed

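Bulk RNA-seq counts of NSCs from E14.5 cko and ctrl embryos were used. Following the methods of the study, the authors aligned reads to mm10 with HISAT2 (the sample labels name GRCm39) and deposited raw counts per Ensembl gene, without normalization. The counting tool, the annotation and the use of strand were not given in the sources used here. The deposited ctrl 2 column held another kind of value, the rounded mean of ctrl 1 and ctrl 3 in 32493 of 32493 genes, and was left out of the main comparison. There were 0 columns used in no step. The methods of the study name TRIzol for RNA isolation, and the labels another kit.

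The members and gene lists were chosen with earlier results of these data known. Counts of 5 libraries were filtered by filterByExpr, normalized by TMM and tested with the quasi-likelihood test of edgeR 4.0.16 in R 4.3.3, with genotype as the only term and Benjamini-Hochberg adjustment over all 16710 genes tested. Errors are SD over libraries, and intervals of fold changes are at 95%. The steps were tested on simulated data with 200 changed genes. The comparison was repeated in DESeq2 1.42.0, with its size factors in edgeR, without the filter or with a minimum of 10 counts per library, with each library left out, with the replicate number as a block, and with all 6 columns. Positions and exon lengths came from GENCODE M21 on GRCm38, which named 31829 genes, and upstream windows from RefSeq (GRCm38.p6). Tables and figures were made in Python 3.11.15 with pandas 2.3.3 and matplotlib 3.10.9.

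The genes named were all members and the Dlx relatives (Dlx1as, Dlx6os1, Dlx3 and Dlx4), up to 4 called genes of each list in each direction by the smallest p, genes with at most 3 counts in every library (by count), and the 3 genes nearest to each of the 2 members of highest mean CPM. Others are marked in the text, except overlapping genes and those that follow, which were named outside this rule. They are Erbb4, Reln, Slc32a1, Map2, Ptch1, Hhip, Cdon and the called neuron markers (Elavl4, Syt1 and Dcx). A result that this rule gives is not reported here.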

Additional observations from a re-analysis of the deposited data

How the results depend on the processing

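Gad1 was called in 10 of 13 alternatives (log2 fold change 0.42 to 0.99), Dlx2 in 5 of 13 (-1.53 to -0.74) and Gsx1 in 1 of 13. Gsx1 reversed to -0.085 without ctrl library 3 and was 0.87 without ctrl library 1. Dlx1, Gad2, Gsx2 and Dlx1as were called in none of theirs. Leaving out 1 library, the counts higher and lower were 317 to 1812 and 416 to 2062 over all genes, 0 to 2 and 0 to 1 for the members, 1 to 7 and 1 to 5 for ventral factors, 0 to 2 and 0 to 3 for Hedgehog genes, 1 to 4 lower for interneuron genes and 0 to 1 lower for dorsal factors. Leaving out a ctrl library left 1, assumed to vary like the cko libraries. With no filter, 2237 genes, 1 member (Dlx2), 7 ventral and 6 interneuron genes were lower, and 7 ventral and 3 Hedgehog genes higher. DESeq2 gave 4 interneuron genes lower and 3 Hedgehog genes higher. With all 6 columns, edgeR, DESeq2 and edgeR with the replicate block called 2865, 2608 and 2675 genes higher and 2794, 2539 and 2673 lower, and 1 member lower in each. In the same order, they called 7, 7 and 9 ventral factors higher and 5, 7 and 5 lower, 4, 4 and 4 interneuron genes lower, 4, 2 and 2 dorsal factors higher and 3, 3 and 3 Hedgehog genes higher, and DESeq2 and the block 5 and 5 Hedgehog genes lower. The cause of these moves was not tested, except that the 6-column fits count an average as a library. Whether same-numbered libraries share more than a number was not stated. Across 16710 genes, the difference ctrl 1 minus ctrl 3 correlated with cko 1 minus cko 3 at r = 0.113. A single correlation cannot decide whether they share a litter. The replicate block in the 5 libraries called 918 genes higher and 1065 lower, 1 member higher and 0 lower, and Olig2 was no longer called (0.34, adjusted p = 0.126 by edgeR). At least 10 counts in every library removed Dlx1 and Dhh, so these have no value there. Depth limits Dlx5, Dlx6, Nkx2-1 and Lhx6, with at most 7 counts in a library.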
